A study of Homo sapiens with 5 samples.

Results

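AP-1 and EGR transcription factors were examined here through 10 genes, the FOS family (FOS, FOSB, FOSL1 and FOSL2), the JUN family (JUN, JUNB and JUND) and EGR1, EGR2 and EGR3. They were chosen by symbol, each had a single row among the 13638 rows of the count table, and all 10 passed the filter on low counts that kept 11205 genes. FOSB and EGR2 passed it only through the wild-type libraries, where they were higher. The libraries came from HAP1, a human near-haploid line derived from chronic myeloid leukaemia cells. The first group held 2 libraries of wild-type cells and the second held 3 libraries of ZCCHC4 knockout cells, and the series title gives ZCCHC4 as the enzyme that places N6-methyladenosine on 28S ribosomal RNA. No treatment, harvest time or number of knockout clones is given in the labels, so p-values cover library-to-library spread only, and that spread could be technical. The protocol describes ribosome footprints, fragments of 28 to 32 nt that ribosomes shield from nuclease, whereas the labels' molecule field says polyA RNA. The counts were read as footprints, so a value follows both the amount of an mRNA and its occupancy by ribosomes. Fewer mRNAs and fewer ribosomes per mRNA cannot be told apart here.

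FOS and JUN proteins are basic leucine zipper factors that pair to form AP-1, which binds DNA at short sites near growth, stress and invasion genes. JUN proteins can pair with each other, whereas FOS proteins need a JUN or another zipper partner. EGR proteins are zinc finger factors that bind GC-rich sites. Many of these genes are immediate early genes: growth factor and stress kinases switch them on within minutes through serum response factor, its ELK partners and CREB, and their mRNAs and proteins are short-lived. FOSL1 and JUND are the steadier forms, kept up by sustained kinase signalling or present at rest.

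Stretches of the promoters are shown because many immediate early genes are known to hold inducible elements close to their start sites. The part of such elements in the falls was not tested. RefSeq start sites with sequence on GRCh38.p14 were found for 8 members, all but FOSL1 and EGR3. Each line gives the 90 bases from 120 to 31 before the start, on the gene's strand, with the matched motifs in capitals. Motifs searched on both strands over the 250 bases before and 50 after each start were the CArG box by name, the cyclic AMP response core TGACGT, the AP-1 site TGACTCA, the variant TGACATCA and the EGR site GCGTGGGCG.

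FOS (chr14:75278708-75278797, plus strand, TGACGT): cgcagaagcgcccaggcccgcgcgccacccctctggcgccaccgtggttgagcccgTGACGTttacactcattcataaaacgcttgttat
FOSB (chr19:45467876-45467965, plus strand, TGACGT): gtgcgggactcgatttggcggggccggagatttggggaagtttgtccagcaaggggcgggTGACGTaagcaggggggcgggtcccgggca
FOSL2 (chr2:28392738-28392827, plus strand, TGACGT): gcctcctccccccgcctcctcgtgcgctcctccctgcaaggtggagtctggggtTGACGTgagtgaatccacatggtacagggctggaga
JUN (chr1:58784078-58784167, minus strand, TGACATCA): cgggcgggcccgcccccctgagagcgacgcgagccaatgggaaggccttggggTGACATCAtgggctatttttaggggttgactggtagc
JUND (chr19:18281653-18281742, minus strand, TGACGT on the other strand): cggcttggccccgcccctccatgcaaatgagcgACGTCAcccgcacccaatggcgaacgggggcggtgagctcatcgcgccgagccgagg
EGR1 (chr5:138465359-138465448, plus strand, 2 CArG boxes, then TGACGT on the other strand): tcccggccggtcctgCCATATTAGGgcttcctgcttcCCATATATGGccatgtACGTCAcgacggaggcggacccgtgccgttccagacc
EGR2 (chr10:62816397-62816486, minus strand, start 3 of those listed, a CArG box, then TGACGT on the other strand): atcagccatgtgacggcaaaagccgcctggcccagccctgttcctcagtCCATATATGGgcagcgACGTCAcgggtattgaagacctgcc

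The core TGACGT lay in the window of 6 of the 8 members, against 7.98% of 35116 RefSeq promoters of the same length. That share is per start site, whereas EGR2 was searched at 3 start sites and matched, for either of its motifs, only at start 3. In FOS, FOSB and FOSL2 its first base was 64, 60 and 66 bases before the start. CArG boxes, the sites of serum response factor, were found in the windows of EGR1 and EGR2 and in 1.29% of all promoters. Bases outside the window were not searched, so sites further upstream would be missed. JUN held TGACATCA 67 bases before its start, a motif in 2.61% of promoters. That motif was searched under the name JUN site, so its match in JUN was foreseeable, and no other member searched had it. FOSL2 held TGACTCA just after its start, a motif in 4.95%. JUNB had no match in its window, and GCGTGGGCG, found in 0.795% of promoters, was in none of the 8. A match is a description of these letters, and binding was not measured.

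Library totals ran from 4887380 to 5302160 counts in wild type and from 16940732 to 31557573 in the knockout, so depth and genotype moved together. ZCCHC4 itself was lower in every knockout library, at 3.85, 3.41 and 4.98 CPM beside 16.0 and 13.3 CPM in wild type (CPM, the count relative to the scaled size of its library). Knockout replicate 2 stood apart from replicates 1 and 3, where the chi-square over genes, divided by its degrees of freedom, was 27.7 and 24.6 against them, 2.97 between those and 1.14 for the wild-type pair. Of 9 haematopoietic marker genes, PTPRC, SPI1, GATA1 and RUNX1 had no row, and CD34, CD33 and LYL1 were too low to test. KIT fell (log2 fold change of -2.80 ± 0.21), and so did TAL1 (-0.66 ± 0.22), although not without wild-type replicate 1 (-0.31) or knockout replicate 1 (-0.58), nor with near-identical libraries summed (-0.65). The summed level of the 5 markers with a row was 19.6 to 21.4 CPM in wild type and 6.45 to 8.03 CPM in the knockout. The part of this difference in the results for AP-1 and EGR genes was not tested.

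All 10 members were lower in the ZCCHC4 knockout libraries. In the quasi-likelihood test of edgeR, adjusted by Benjamini-Hochberg over all 11205 genes at a threshold of 0.05, 10 of 10 fell and none rose, where 29.8% of all tested genes fell and 60.0% changed in either direction. Every knockout library lay below both wild-type libraries for all 10, against 37.9% of tested genes. The median log2 fold change (knockout over wild type) of the members was -2.41, or 5.33-fold lower, beside 0.02 for all tested genes. A fall of at least 4-fold was found for 7 members and for 5.30% of tested genes. FOSB and EGR2 are among these 7. Since they passed the filter only through wild type, a fall was favoured in them and adds no separate support to these counts. The falls ran from 1.70-fold in JUNB to 35.6-fold in FOSB and 45.7-fold in EGR3, and without knockout replicate 2 FOSB fell further than EGR3. The scaling used for CPM was TMM, which sets each gene against the bulk of the others. Leaving out knockout replicate 2, the library that stood apart, also gave 10 falls.

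**Figure D1:**
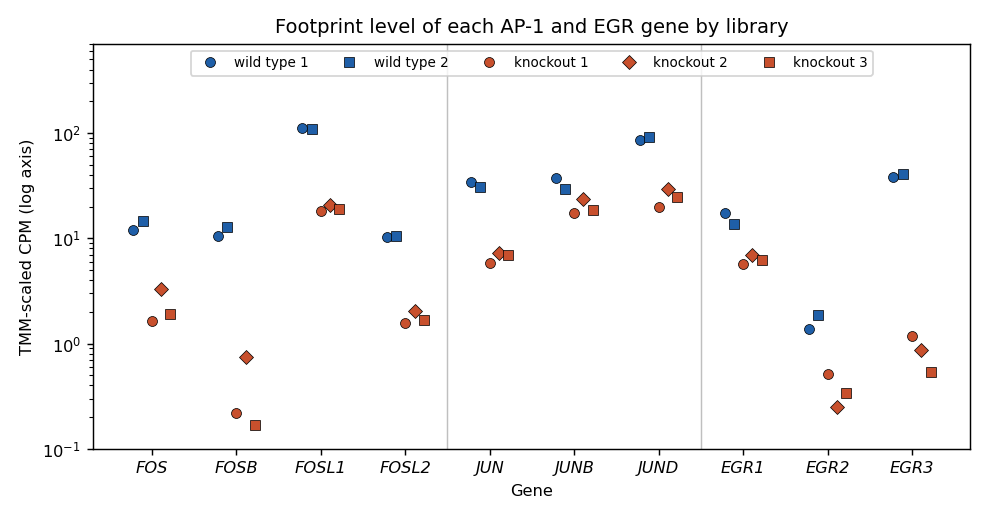
TMM-scaled CPM on a log axis for each member in each of the 5 libraries, with wild type in blue and ZCCHC4 knockout in red. The red points sit below the blue points for all 10 genes, with the narrowest gap in JUNB and the widest in EGR3 and FOSB.

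FOSL1, the FOS-family member with the most footprints, fell from 112 and 109 CPM in the wild-type libraries to 18.2, 20.7 and 18.9 CPM in the knockout libraries. These came from 652 and 585 counts and from 496, 334 and 559 counts. The libraries of each genotype lay close together and far from the other genotype, and FOSL1 changed by -2.53 ± 0.09 on the log2 scale (SE; adjusted p = 1.75e-07, edgeR). FOSL1 (ENST00000312562, GRCh38 chromosome 11, 65892220 to 65900526, minus strand, 4 exons) lacks the strong activation domain of FOS and is a late, ERK-dependent member of the family.

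FOS, the founding immediate early gene, had 70 and 79 counts in wild type, against 45, 53 and 56 in the deeper knockout libraries. Its levels were 12.1 and 14.7 CPM against 1.65, 3.28 and 1.90 CPM, a log2 fold change of -2.62 ± 0.28 (adjusted p = 5.50e-05, edgeR). Knockout replicate 2 was the highest of the knockout libraries, and its exact Poisson 95% interval of 2.46 to 4.29 CPM, which covers counting error only, did not overlap the 1.20 to 2.21 CPM of replicate 1 and met the 1.43 to 2.46 CPM of replicate 3 only at its end. FOSL2, a steadier FOS relative, had 10.2 and 10.5 CPM in wild type and 1.58, 2.04 and 1.66 CPM in the knockout. Its log2 fold change was -2.57 ± 0.20, so FOS, FOSL1 and FOSL2 fell by sizes that lay within the SE of FOS from each other.

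FOSB, whose shorter splice form accumulates under repeated stimulation, fell further than these. Its 61 and 69 wild-type counts stood against 6, 12 and 5 knockout counts. That is 10.5 and 12.9 CPM against 0.220, 0.743 and 0.169 CPM, and a log2 fold change of -5.15 ± 0.40 (35.6-fold, adjusted p = 8.17e-06, edgeR). Knockout replicates 1 and 3 were near the limit that a count of 0 allows there, 0.110 and 0.102 CPM, and replicate 2 was 3.82 times their mean. Without replicate 2 the log2 fold change was -5.86. The table has a single FOSB row (ENST00000353609, chromosome 19, 45467995 to 45475178, plus strand), so splice forms were not separated.

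JUN, the partner that carries most of AP-1's inducible activity, fell from 34.5 and 30.4 CPM to 5.79, 7.19 and 6.94 CPM. The 200 and 163 wild-type counts and 158, 116 and 205 knockout counts gave a log2 fold change of -2.30 ± 0.14 (adjusted p = 2.70e-06, edgeR). JUND, the family member expressed in resting cells, had 85.9 and 91.9 CPM in wild type and 20, 29.2 and 24.8 CPM in the knockout, a log2 fold change of -1.86 ± 0.15 (adjusted p = 9.39e-06, edgeR). In both genes the groups were separated by several times the spread within either of them.

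JUNB, which can restrain JUN activity when paired with it, was the member that moved least. Its levels were 37.4 and 29.3 CPM in wild type and 17.3, 23.4 and 18.6 CPM in the knockout, from 217 and 157 counts against 473, 377 and 549 counts. The wild-type libraries differed more from each other than in JUN or JUND, and the lower of them, at 29.3 CPM, was close to the highest knockout library. The log2 fold change was -0.77 ± 0.16 (adjusted p = 0.00293, edgeR), and without wild-type replicate 1 it was -0.58 with an adjusted p of 0.0662, which misses the threshold of 0.05. The coding exon of JUNB (chromosome 19, 12791496 to 12793315, plus strand, a single exon) overlaps exons annotated to HOOK2 on the opposite strand. Whether counting used strand is not given in the sources used here, and HOOK2 also fell, at a log2 fold change of -1.04 ± 0.13, so footprints of the pair cannot be told apart.

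EGR3 and FOSB changed most of the 10, and their order turned without knockout replicate 2, where EGR3 was at -5.53 and FOSB at -5.86 on the log2 scale. EGR3 counts of 220 and 218 in wild type stood against 32, 14 and 16 in the knockout, or 37.9 and 40.7 CPM against 1.17, 0.867 and 0.542 CPM. The log2 fold change was -5.52 ± 0.22 (adjusted p = 2.86e-07, edgeR), and only 0.643% of tested genes had a lower one. EGR1, the most studied immediate early zinc finger factor, changed less, from 17.4 and 13.8 CPM to 5.72, 6.94 and 6.16 CPM. Its log2 fold change was -1.33 ± 0.17 (2.51-fold, adjusted p = 1.59e-04, edgeR), from 101 and 74 counts against 156, 112 and 182. EGR2, known for its role in myelination, was scarce in all libraries, with 8 and 10 wild-type counts against 14, 4 and 10 knockout counts. These are 1.38 and 1.87 CPM against 0.513, 0.248 and 0.339 CPM, and a log2 fold change of -2.06 ± 0.47 (adjusted p = 0.00436, edgeR). Leaving out wild-type replicate 2 ended the EGR2 call (-1.84, adjusted p = 0.0678, edgeR). With trends in GC content, level and coding length removed by splines, its value was -0.31.

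**Figure D2:**
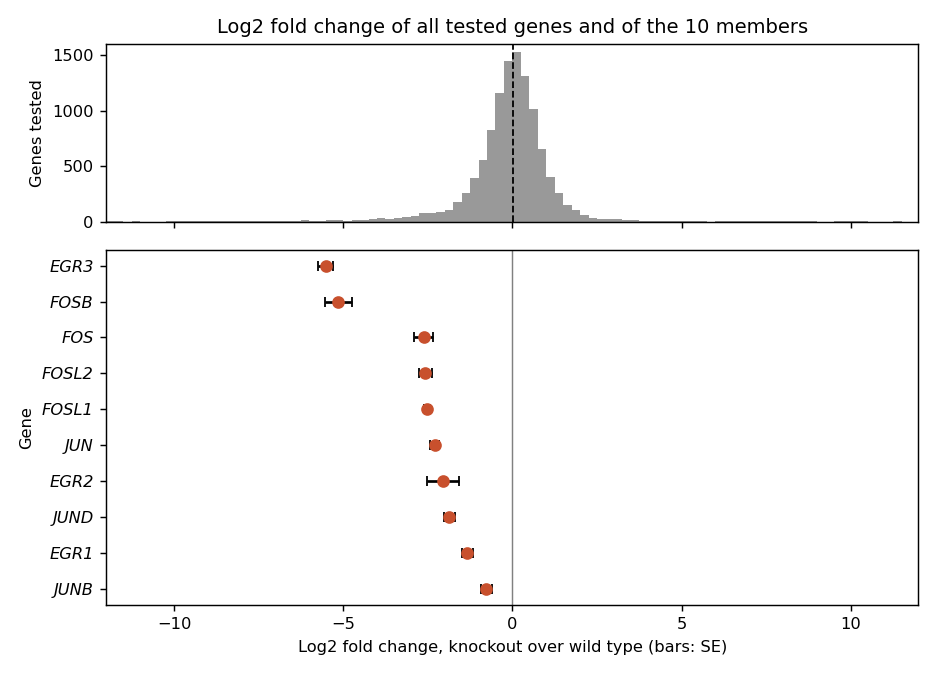
Log2 fold changes, knockout over wild type: the upper panel is a histogram of all 11205 tested genes with their median of 0.02 as a dashed line, and the lower panel gives each member with its SE. All 10 members lie left of 0, from JUNB at -0.77 to EGR3 at -5.52.

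Levels of different genes were compared per kb of coding sequence (GENCODE 29), since a longer coding sequence collects more footprints. In wild type FOSL1 was highest, at 136 ± 2.82 CPM per kb (SD, n = 2), followed by JUND at 85.4 ± 4.04. EGR3, JUN and JUNB came next at 33.9 ± 1.68, 32.7 ± 2.90 and 32.1 ± 5.52 CPM per kb, and these 3 did not differ beyond their spread. FOS, FOSB, FOSL2 and EGR1 lay at 11.8, 11.5, 10.5 and 9.59 CPM per kb, with overlapping ranges, and EGR2 was last at 1.14. In the knockout FOSL1 and JUND stood level at 23.7 ± 1.58 and 23.7 ± 4.45 CPM per kb (SD, n = 3), and JUNB came next at 19.0 ± 3.05, overlapping JUND. JUN followed at 6.69 and EGR1 at 3.85, with FOS and FOSL2 at 2.0 and 1.80 and within each other's range. EGR3 went from rank 3 of the 10 in wild type to rank 8 in the knockout, at 0.741 ± 0.272 CPM per kb, with FOSB (0.372), which overlapped both neighbours, and EGR2 (0.257) below it. Against all tested genes, FOSL1 lay above 88.8% of them per kb in wild type and above 58.9% in the knockout.

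Summed over its members per kb, the FOS family went from 169.7 and 171 CPM per kb in wild type to 25.6, 31.2 and 26.8 in the knockout, a ratio of means of 6.11. The JUN family went from 153 and 147 to 41.7, 57.8 and 48.7 CPM per kb, a ratio of 3.04. For the 3 EGR genes the sums were 44.3 and 44.8 against 4.88, 5.18 and 4.49 CPM per kb, a ratio of 9.20. Footprints of the FOS family relative to the JUN family were thus 1.11 and 1.16 in wild type, against 0.615, 0.539 and 0.551 without ZCCHC4. The groups did not overlap in any of these 4 quantities. With 2 libraries against 3, the exact two-sided permutation test cannot go below p = 0.1, the value found for each of them (0.146 adjusted over the 19 sums, shares and ratios tested).

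Shares within the JUN and EGR families also lay apart between the genotypes. JUNB took 23.5% and 19.1% of the JUN-family level in wild type, against 40.0%, 38.8% and 36.7% in the knockout, whereas JUN took 22.7% and 20.8% against 14.0%, 12.5% and 14.4%. JUND held the largest JUN-family share in every library, at 53.9% and 60.0% against 46.0%, 48.6% and 48.9%. Among the EGR genes the order turned round: EGR3 held 73.7% and 78.2% in wild type but 20.7%, 14.4% and 10.4% in the knockout. EGR1 held 24.1% and 18.9% in wild type, against 71.9%, 82.2% and 84.3% in the knockout. These 5 shares did not overlap between the genotypes, and each reached the smallest exact permutation p of 0.1 (0.146 adjusted).

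Within the FOS family the picture was steadier. FOSL1 made up 81.5% and 78.7% of the family in wild type, against 87.2%, 81.7% and 86.8% in the knockout (exact permutation p = 0.200, 0.238 adjusted). The shares of FOS (6.24% and 7.58% against 5.64%, 9.24% and 6.20%) and FOSL2 (6.13% and 6.26% against 6.29%, 6.71% and 6.33%) gave exact permutation p values of 1 and 0.300, or 1 and 0.335 adjusted. The shares of FOSL1 and FOSL2 were narrowly apart between the genotypes, and those of FOS overlapped. FOSB stood further apart, at 6.11% and 7.44% in wild type against 0.846%, 2.35% and 0.623% in the knockout (exact permutation p = 0.1, 0.146 adjusted).

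**Figure D3:**
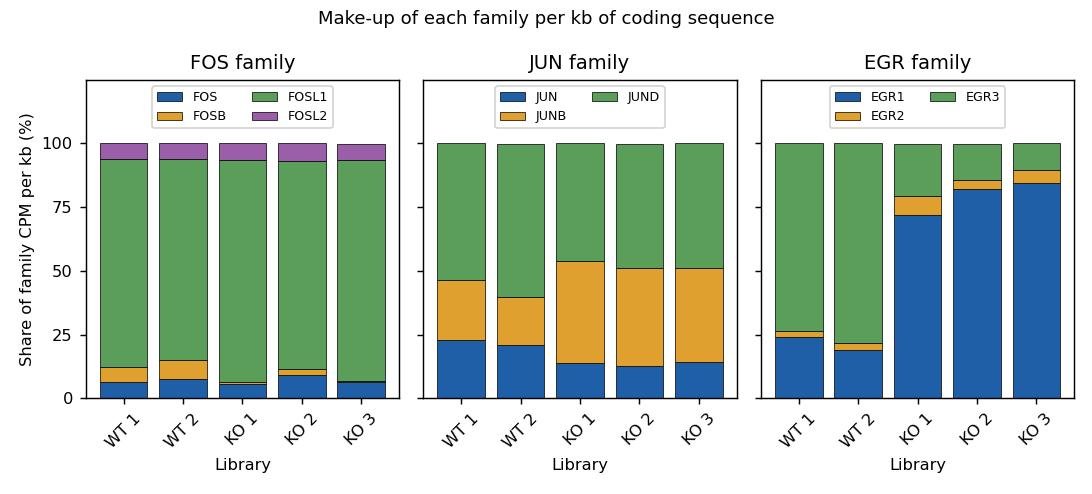
Share of each member in the CPM per kb of its family, as stacked bars from 0 to 100% for the 2 wild-type (WT) and 3 knockout (KO) libraries. FOSL1 fills most of every FOS-family bar, the JUNB segment is taller in the knockout, and EGR3 gives way to EGR1 as the largest EGR segment.

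Knockout replicate 2 was the highest of the 3 knockout libraries for 8 of the 10 members, where 44.0% of all tested genes had their highest knockout value there. The exceptions were EGR2 and EGR3. Its level relative to the mean of replicates 1 and 3 was 3.82 for FOSB, 1.85 for FOS, 1.31 for JUND, 1.30 for JUNB and 1.26 for FOSL2. For EGR1, JUN and FOSL1 the ratio was 1.17, 1.13 and 1.11. For these genes, FOSL2 and, narrowly, FOSB, intervals of counting error overlapped between replicate 2 and each of the other 2. In JUNB the replicate 2 interval, 21.1 to 25.8 CPM, was apart from both others. Those of FOS and JUND were apart from replicate 1 and met replicate 3 only at the end. Replicate 2 was also the highest for 17 of 22 tested genes on a list of other immediate early genes. Leaving it out moved the log2 fold change of FOS to -2.91 and that of JUNB to -0.90.

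Of 24 other immediate early genes listed, 22 were tested: 14 fell, 4 rose and 4 missed the threshold, beside 29.8% lower and 60.0% called among all tested genes. Their median log2 fold change was -0.88. PLK2, a polo-like kinase, fell from 55.7 ± 3.48 to 6.48 ± 0.847 CPM (-3.08 ± 0.13; SD and SE, n = 2 and n = 3). ARC, a synaptic immediate early gene, was low throughout and fell from 3.23 to 0.537 CPM (-2.55 ± 0.36, or -1.33 with the trends removed), and IER5 fell from 30.4 to 7.55 CPM (-2.02 ± 0.16). The 4 that rose, named after their values were seen, were TIPARP (1.32 ± 0.11), CYR61 (0.72 ± 0.09), CTGF (0.66 ± 0.12) and MYC (0.28 ± 0.07). With the trends removed, their values were 1.30, 0.51, 0.64 and 0.04. CYR61 and CTGF encode matrix-associated proteins that are textbook targets of YAP and serum response signalling.

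Of 13 listed zipper partners that can pair with FOS or JUN, 10 were tested, with 6 lower, 1 higher and 3 missing the threshold. The 7 called are near the 60.0% of all tested genes, of which 29.8% were lower, and the median of the partners was -0.56. MAF, a large Maf factor, fell from 18.3 ± 0.245 to 0.754 ± 0.158 CPM (-4.61 ± 0.21), or 24.4-fold. CREB5 had 9 and 8 wild-type counts against 0, 1 and 3, so that its value rests on few footprints (-4.62 ± 0.72, or -2.12 with the trends removed). ATF7, the partner that rose, was at 0.37 ± 0.13 and is named after its value was seen. Without wild-type replicate 1 or 2, 3 of these partners passed in each case, and without knockout replicate 1, 4 passed.

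The corepressors of EGR proteins and the remaining EGR gene gave little to test. NAB2, a corepressor that EGR factors themselves induce, fell from 60.3 ± 0.557 to 22.9 ± 4.27 CPM (-1.41 ± 0.15, adjusted p = 4.54e-05, edgeR). NAB1 was at 0.21 ± 0.12 and WT1, a related zinc finger factor, at -0.21 ± 0.22, and neither passed. Without knockout replicate 2, 2 of the 3 passed. EGR4, with 1 and 0 wild-type counts against 1, 0 and 3, was not tested.

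Of 7 tested serum response and CREB factors, 2 fell, 1 rose and 4 missed the threshold, where 29.8% of all tested genes fell and 60.0% changed. Their median log2 fold change was -0.02. SRF, the serum response factor, was at 25.3 CPM in both genotypes (0.00 ± 0.12, adjusted p = 0.978, edgeR). CREM and the SRF partner ELK4 fell, by 1.48 ± 0.17 and 1.21 ± 0.17 on the log2 scale. CREB1 rose at 0.47 ± 0.13, a call lost with library totals (0.25), with the replicate block (0.39), with the near-identical libraries summed (0.42) and without wild-type replicate 1 (0.44) or 2 (0.49). Footprint CPM, relative to other genes, follows the mRNA of these factors and its occupancy by ribosomes. Phosphorylation of the factors, which sets their activity, was not measured.

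Of 18 tested kinases that induce or phosphorylate AP-1 and EGR factors, 5 rose, 7 fell and 6 missed the threshold, and the median was -0.14. These shares are near the 29.8% lower and 60.0% called among all tested genes. The largest falls were in MAP2K5, the kinase of ERK5, from 94.2 to 24.4 CPM (-1.95 ± 0.10), in MAPK9, the JNK2 gene, from 58.6 to 23.9 CPM (-1.29 ± 0.09), and in RPS6KA2 (-1.21 ± 0.19). MAP2K6, a kinase of p38 named after its value was seen, rose from 6.62 to 15.0 CPM (1.17 ± 0.15). Without wild-type replicate 1 or 2, 7 of the 18 passed in each case, and with near-identical libraries summed 6 passed. Genes that control turnover of AP-1 mRNA and protein gave 5 falls and 1 rise among 10 (median -0.32), no more calls than the 60.0% of all tested genes, and 2 calls with near-identical libraries summed. FBXW7, the ubiquitin ligase subunit that marks JUN and other factors for degradation, fell from 24.4 to 7.78 CPM (-1.66 ± 0.13). HNRNPD, which binds AU-rich mRNAs such as that of FOS, rose from 933 to 1611 CPM (0.79 ± 0.11, or 0.36 with the trends removed), and ZFP36L2 fell by 0.55 ± 0.11 on the log2 scale, a call lost with near-identical libraries summed (-0.51).

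Of 19 textbook AP-1 targets listed, 10 were tested: 6 fell, 2 rose and 2 missed the threshold, beside 29.8% lower and 60.0% called among all tested genes. Their median was -1.06, and where a mean count of 50 was required 4 passed. AREG, an EGF receptor ligand, had 14 and 11 wild-type counts against 3, 3 and 2 (-4.26 ± 0.49, or -2.43 with the trends removed). CCND1, cyclin D1, fell from 7.87 to 0.909 CPM (-3.26 ± 0.42), and PLAU, the urokinase gene, from 8.86 to 1.02 CPM (-3.14 ± 0.27). The 2 that rose, named after their values were seen, were VIM, the intermediate filament vimentin, from 132 to 511 CPM (1.95 ± 0.08) and the protease inhibitor gene TIMP1, from 28.0 to 74.7 CPM (1.41 ± 0.13). MMP1, MMP3, MMP10, IL8 and IL6 had no row and were not analysed here.

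**Figure D4:**
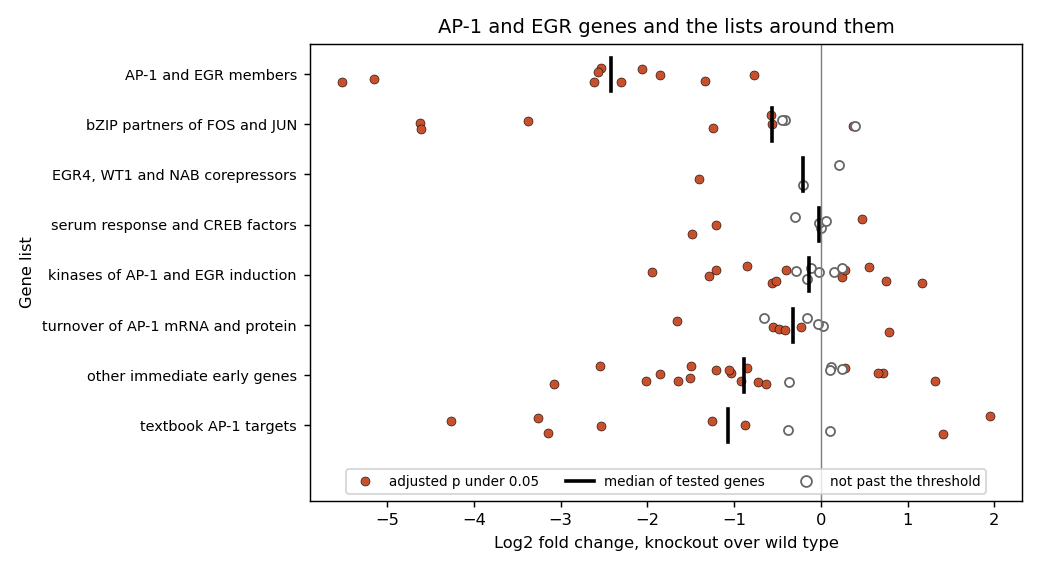
Log2 fold change of every tested gene of the AP-1 and EGR members and of 7 lists around them, filled where edgeR's adjusted p was under 0.05, with the median as a black bar. The members' median of -2.41 lies lowest, other immediate early genes and AP-1 targets have medians of -0.88 and -1.06, and serum response factors and kinases lie near 0.

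The genomic surroundings of the members differed. EGR3 (chromosome 8, 22687659 to 22693302) had 26 tested genes with start sites within 2 Mb, with a median log2 fold change of -1.03. Of these neighbours 21 fell and 1 rose, beside 29.8% lower and 60.0% called among all tested genes. No gene there had a value below the -5.52 of EGR3, although TNFRSF10D, with its start site 0.471 Mb away, came close at -5.30. For the other members with at least 20 such genes, FOS, FOSB, FOSL1, FOSL2, JUNB, JUND and EGR1, the medians ran from -0.12 to 0.13. FOSB, with 77 neighbours at a median of 0.05, was lower than all of them. JUN had only 4 tested neighbours, with a median of -0.81, and EGR2 had 7, with a median of 0.19. The part of the chromosome 8 surroundings in the EGR3 result was not tested.

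**Figure D5:**
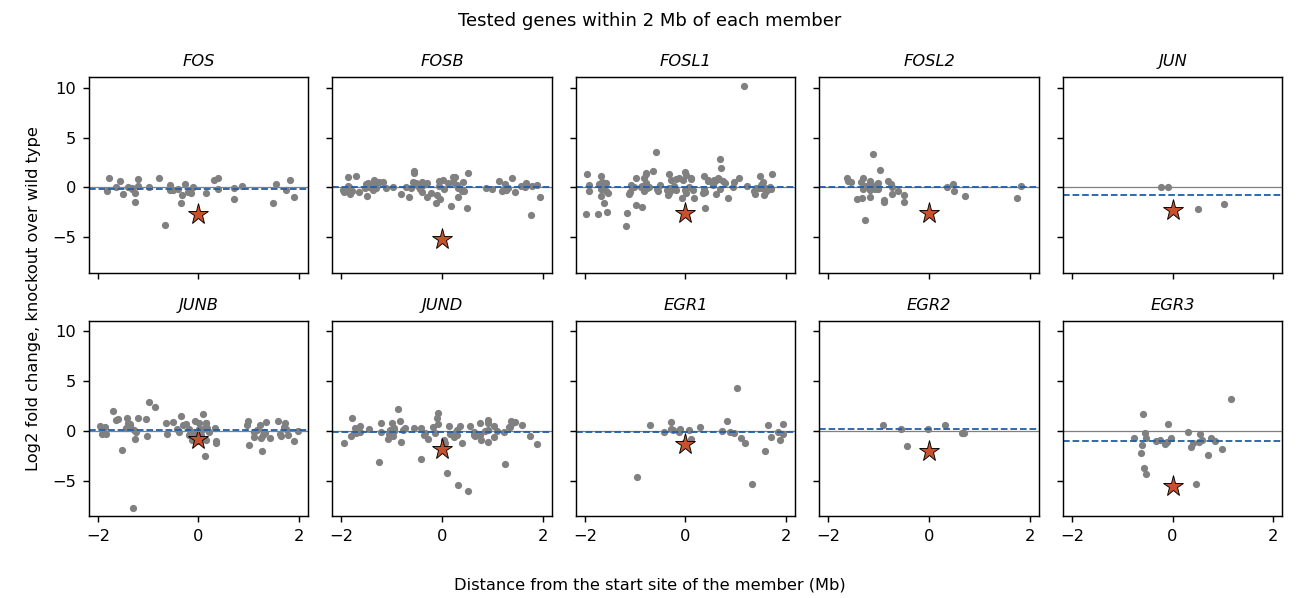
Log2 fold change of tested genes against the distance of their start site from that of each member in Mb, with the member as a red star and the median of the neighbours as a dashed line. Neighbours of EGR3 centre on -1.03, and those of FOSB, FOSL1 and JUND lie around 0 with the member well below.

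Genes with the most similar profile were taken for the member with the highest mean CPM in each family, by Euclidean distance of centred log2 CPM over the 5 libraries. Nearest to FOSL1 were MACROD1 (distance 0.120), whose start site lies 1.73 Mb away on chromosome 11, the cell adhesion gene L1CAM (0.196) and the lysyl oxidase gene LOXL2 (0.206). JUND was nearest to PCK2, a mitochondrial gluconeogenic enzyme gene (0.179), the immediate early gene IER5 (0.179) and THSD4 (0.182). Among the nearest to EGR3 were H2AFY2 (0.588) and TNFRSF10D (0.610), the latter with its start site 0.471 Mb away on chromosome 8.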

How the data were processed

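The deposited table holds unnormalized whole-number counts per transcript (per the file headers, which are shifted by 1 cell, and the values), read here as footprint counts. The submitters' processing notes name hg38 and Bowtie, with no version; counter, annotation, strand and handling of duplicates are steps not given in the sources used here. GENCODE 29 models matched 13533 of 13638 rows. In R 4.3.3, edgeR 4.0.16 was fitted to all rows with TMM scaling, genotype as sole covariate and filterByExpr at a minimum count of 10, followed by glmQLFTest; genes with a Benjamini-Hochberg adjusted p below 0.05 were called. SE is the log2 fold change over the square root of F. DESeq2 1.42.0 and limma 3.58.1 (voom) were alternatives, as were other scalings and filters, a replicate block and leaving out libraries. Tested on simulated counts for 11205 genes, the fit recovered 8%, 70%, 78% and 94% of 50 genes each changed 1.25-, 1.5-, 2- and 4-fold. It made 129 calls, of which 4 were false. Only these genes were changed in the simulation, whereas 60.0% of genes were called in the data, so the rates may not carry over. One count was 0.172 and 0.187 CPM in wild type and 0.0339 to 0.0619 CPM in the knockout. A count of 0 allows 3 counts, and intervals and this limit cover counting error only.

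The members, gene lists, tests and alternatives were chosen with earlier results of these data known. Named were the members, ZCCHC4, up to 3 passing genes with the largest change per list, and the 3 nearest profiles among genes averaging 3 or more on the log2 CPM scale. Some genes that this rule names are not reported here.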

Additional observations from a re-analysis of the deposited data

How the results depend on the processing

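Over 14 alternatives, 135 of 137 values of the members kept their call. The exceptions were JUNB without wild-type replicate 1 (-0.58) and EGR2 without wild-type replicate 2 (-1.84). Where a mean count of 50 was required, FOSB, FOSL2 and EGR2 were not tested and the other 7 fell. Library totals moved the median of all genes from 0.02 to -0.20, and the calls from 3341 lower and 3380 higher to 4564 and 2391. The 30 other named genes kept 399 of 408 calls, and 9 were weaker and 0 reversed. Of listed genes called, leaving out a library gave 3 to 9 zipper partners (7 with all), 1 to 2 of the EGR4, WT1 and NAB genes (1 with all) and 7 to 16 kinases (12 with all). With near-identical libraries summed, 6 kinases and 2 turnover genes (6 before) passed. Where a mean count of 50 was required, 4 AP-1 targets passed (8 before), and fewer were tested. For the other settings the cause was not tested. Without division by length, FOS, FOSB, FOSL1 and FOSL2 took 9.16%, 7.99%, 75.8% and 7.05% of their family in wild type. FOS, FOSL1 and FOSL2 took 9.42%, 81.6% and 7.42% in the knockout, and EGR1 and EGR3 took 27.6% and 69.5% in wild type.

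Replicate numbers are shared between the genotypes without a stated pairing, and deviations of same-numbered libraries correlated at -0.086 and -0.081. With the replicate block 10 members fell, and the calls over all genes were 3026 lower and 3068 higher. Removing trends in level, GC content and coding length with splines, an alternative chosen after seeing the data, gave the members a median of -2.47. Depth limits EGR2, FOSB, CREB5 and AREG most, and EGR4 was below what could be tested.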
